A study of Homo sapiens with 6 samples.

Results

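Receptors of the tumor necrosis factor (TNF) superfamily were examined in RPMI8226 cells, an established human multiple myeloma (MM) line, after 6 hr with either GST-PTR1 or its negative control GST at 100 nM. GST-PTR1 joins glutathione-S-transferase (GST) to PTR1, a domain of the extracellular matrix protein HAPLN1, and both proteins were produced in Escherichia coli and purified on glutathione-agarose. The paper reports a Limulus assay for contaminating bacterial lipopolysaccharide. By its account the level was a few orders of magnitude lower than an NF-κB mobility shift assay could detect in these cells. No engineered genetic change is described for the cells. Each treatment had 3 biological replicates, 6 RNA-Seq libraries in all, from 1 cell line at 1 dose and 1 time. The 10 receptor genes were chosen by name, TNFRSF1A, TNFRSF1B, CD40, LTBR, TNFRSF4, TNFRSF8, TNFRSF9, TNFRSF13B, TNFRSF13C and TNFRSF18, and all 10 were found by Ensembl identifier on primary chromosomes among the 63677 genes of the count table. All but TNFRSF1A lack a death domain.

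TNF superfamily receptors are membrane proteins whose cysteine-rich outer domains bind ligands that act as trimers. Receptors without a death domain recruit TRAF adaptors to their tails, which feed into the canonical and noncanonical arms of NF-κB, while TNFRSF1A also recruits TRADD through its death domain. In the B lineage CD40 and TNFRSF13C, the BAFF receptor, support B cells, whereas TNFRSF13B (TACI) and the related TNFRSF17 (BCMA) serve plasma cells and bind BAFF and APRIL. TNFRSF4 (OX40), TNFRSF9 (4-1BB) and TNFRSF18 (GITR) are best known as costimulatory receptors of activated T cells, and TNFRSF8 (CD30) as a marker of activated and Hodgkin lymphoma cells.

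The libraries held 15202503, 20077280 and 23453473 counts with GST and 22874133, 28837431 and 44688737 with GST-PTR1, and values below are given in that order for each treatment. All 8 plasma cell markers in a list that includes SDC1, CD38, IRF4 and XBP1 were above 1 CPM (counts scaled to the library total). By the test described below 3 of them were higher and 3 lower, against 9.15% and 11.4% of all genes tested. The list had a summed level of 2050 to 2670 CPM with GST and 1850 to 2150 CPM with GST-PTR1. The 5 T cell markers matched by name had at most 3 counts in any library (1 of them at 0), and their summed level was 0.0498 to 0.197 CPM with GST and 0 to 0.0694 CPM with GST-PTR1. Of 6 myeloid and 5 stromal markers none exceeded 1 CPM in any library, and the summed levels were 0.853 to 1.51 and 0.263 to 0.554 CPM with GST, and 0.624 to 0.917 and 0.336 to 0.393 CPM with GST-PTR1. The list of 6 B cell markers summed to 440 to 470 CPM with GST and 290 to 332 CPM with GST-PTR1, most of it from CR2 and BLK. The part of these shifts in the receptor results was not tested.

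Since NF-κB signaling was the pathway under study, the sequences before the start sites of the receptor genes were searched for its motif. RefSeq promoters (GRCh38.p14) were matched by name for 7 of the 10 genes. CD40, TNFRSF4 and TNFRSF13C had no match and were not searched. The 250 bases before the start were searched on both strands for the κB consensus, for the AP-1 site TGACTCA, for the GC box GGGCGG and for TATAAA. TNFRSF9 is printed because its mRNA changed most, TNFRSF18 because it had the highest level per length, and TNFRSF1B because it is the TNF receptor that was called. Capitals mark every match, the sequences run 5′ to 3′ along the strand of the gene, and overlapping matches form 1 run.

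TNFRSF9: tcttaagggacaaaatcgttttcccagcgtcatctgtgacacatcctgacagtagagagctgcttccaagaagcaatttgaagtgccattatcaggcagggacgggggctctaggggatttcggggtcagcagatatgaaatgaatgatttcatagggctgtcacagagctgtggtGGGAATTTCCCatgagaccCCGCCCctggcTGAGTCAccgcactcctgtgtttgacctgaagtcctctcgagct

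TNFRSF18: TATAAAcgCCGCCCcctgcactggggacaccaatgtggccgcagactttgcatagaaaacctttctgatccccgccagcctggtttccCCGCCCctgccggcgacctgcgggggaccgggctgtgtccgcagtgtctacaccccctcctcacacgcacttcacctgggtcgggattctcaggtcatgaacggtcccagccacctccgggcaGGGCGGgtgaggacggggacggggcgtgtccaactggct

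TNFRSF1B: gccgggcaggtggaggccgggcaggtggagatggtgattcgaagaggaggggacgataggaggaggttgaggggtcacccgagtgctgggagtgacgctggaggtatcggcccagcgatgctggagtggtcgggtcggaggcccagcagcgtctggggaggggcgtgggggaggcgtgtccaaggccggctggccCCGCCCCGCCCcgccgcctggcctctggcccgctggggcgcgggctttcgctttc

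The windows lie at chr1:7940840-7941089 on the minus strand, chr1:1206593-1206842 on the minus strand and chr1:12166741-12166990 on the plus strand of GRCh38.p14. Among the 7 genes searched, which leave out CD40 and TNFRSF4, TNFRSF9 was the one with the κB consensus. It had 2 overlapping matches on opposite strands that begin at -74 and -73 from the start. TNFRSF9 was also the one with the AP-1 site, which begins at -44. Of 35116 promoter windows of the same length, 9.96% held the κB consensus, 4.2% the AP-1 site, 42.6% the GC box and 10.7% TATAAA. The GC box was matched 4 times in LTBR, 3 times in TNFRSF18, 2 times in TNFRSF1B and 1 time each in TNFRSF8, TNFRSF9 and TNFRSF13B, and not in TNFRSF1A. TATAAA was matched in TNFRSF18 alone, at -250. A match describes the letters of the window and is not evidence of binding.

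The level of the 10 mRNAs was compared per length, in RPKM, reads scaled to exon length and library total. With GST the order was TNFRSF18, TNFRSF1B, TNFRSF13B, TNFRSF1A, TNFRSF8, CD40, TNFRSF13C, TNFRSF9, TNFRSF4 and LTBR, and the ranges of the 3 libraries did not overlap between any neighbours in that order. TNFRSF4 and LTBR had at most 3 and 2 counts there, so their order carries little weight. TNFRSF13C and TNFRSF9 were alike when not divided by length, at 0.636 ± 0.192 and 0.645 ± 0.0882 CPM (SD, n = 3 each). TNFRSF18 and TNFRSF1B alone made up 52.4% ± 2.27 and 29.7% ± 2.21 (SD, n = 3) of the summed RPKM of the 10 genes. With GST-PTR1 the upper 3 places were unchanged, and the ranges did not overlap there. CD40 moved from the sixth place to the fifth, where its range overlapped those of TNFRSF1A above and TNFRSF8 below. TNFRSF9 moved from the eighth place to the seventh, with no overlap on either side, and TNFRSF13C and TNFRSF4 below it overlapped each other.

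**Figure D1:**
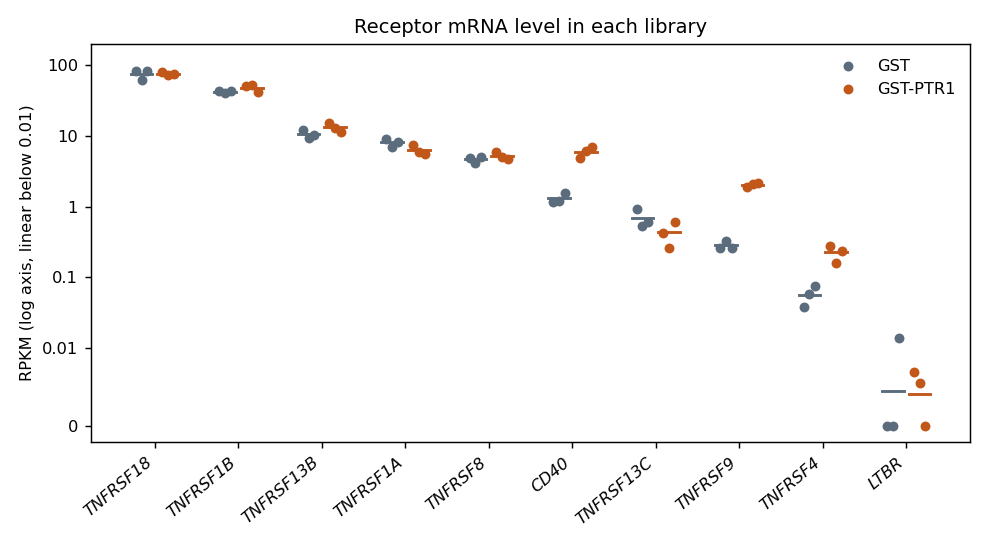
RPKM of each receptor gene in each library, on a log axis that is linear below 0.01, with GST in grey, GST-PTR1 in orange and a short line at the mean of 3 libraries. TNFRSF9, CD40 and TNFRSF4 are the genes whose GST-PTR1 points all lie above their GST points.

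The treatments were compared with edgeR's quasi-likelihood test on the counts, with Benjamini-Hochberg adjustment over the 16926 genes that passed the expression filter. Of the 10 receptor genes 8 passed the filter, and TNFRSF4 and LTBR did not. With GST-PTR1, 4 of the 8 were higher at an adjusted p under 0.05, TNFRSF9, CD40, TNFRSF13B and TNFRSF1B, against 9.15% of all genes tested. Of these, TNFRSF9 and CD40 were at least 2-fold higher, against 3.68% of all genes tested. None was lower in edgeR (0 at an unadjusted p under 0.05), nor in DESeq2 or limma's voom, against 11.4% of all genes tested. The median log2 fold change of the 8 was 0.36, and that of all genes tested was 0.01. In bulk RNA a change in the number of cells that express a gene and a change in the RNA per cell cannot be told apart.

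**Figure D2:**
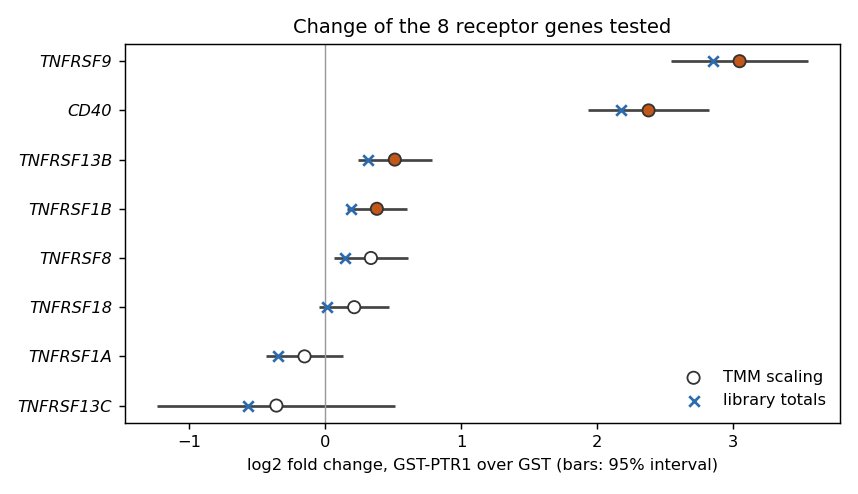
Log2 fold change of the 8 receptor genes tested, GST-PTR1 over GST, with its 95% interval (bars), filled where the adjusted p was under 0.05, and the value when scaled by library totals alone (crosses). TNFRSF9 and CD40 lie above 2 on the log2 scale under either scaling, and every cross lies to the left of its circle.

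TNFRSF9 (ENSG00000049249, chromosome 1 of GRCh37 from 7979907 to 8000926), which encodes 4-1BB, changed most. It had 9, 15 and 14 counts with GST and 100, 136 and 222 with GST-PTR1. This corresponds to 0.259, 0.327 and 0.261 RPKM with GST and to 1.91, 2.07 and 2.18 RPKM with GST-PTR1, and the treatments did not overlap. On the log2 scale the difference was 3.05 ± 0.23 (SE), with an adjusted p of 4.08e-06 by the quasi-likelihood test of edgeR, which is a rise of 8.28-fold with a 95% interval from 5.84 to 11.7. Its mRNA remained low per length, with a mean of 2.05 ± 0.131 RPKM (SD, n = 3) after GST-PTR1, below the 6.35 ± 0.985 RPKM of TNFRSF1A.

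CD40 (ENSG00000101017, chromosome 20 from 44746911 to 44758502), the receptor through which helper T cells activate B cells, was measured at 42, 57 and 87 counts with GST and 266, 417 and 727 with GST-PTR1. The RPKM values were 1.17, 1.2 and 1.57 with GST and 4.91, 6.11 and 6.87 with GST-PTR1. No library of one treatment fell within the range of the other. On the log2 scale the difference was 2.38 ± 0.20 (SE), with an adjusted p of 1.16e-05 by the quasi-likelihood test of edgeR, which is a rise of 5.2-fold with a 95% interval from 3.82 to 7.08. On RPKM the exact permutation test gave p = 0.1 (two-sided) for CD40 and for TNFRSF9, the smallest p that 3 libraries against 3 allow.

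TNFRSF13B (ENSG00000240505, chromosome 17 from 16832849 to 16875432), which encodes TACI, rose less. It had 12.3, 9.38 and 10.3 RPKM with GST and 15.4, 13 and 11.5 RPKM with GST-PTR1, and the deepest GST-PTR1 library lay within the range of the GST libraries. With TMM-scaled totals the values were 11.2, 8.91 and 9.69 against 15.8, 13.7 and 13 RPKM and did not overlap. On the log2 scale the difference was 0.51 ± 0.12 (SE), with an adjusted p of 0.0142 by the quasi-likelihood test of edgeR, which is a rise of 1.43-fold. Of its exon bases 20.6% are shared on the same strand with TBC1D27P, and reads that overlapped both genes were not counted. TNFRSF13C (ENSG00000159958, chromosome 22 from 42321045 to 42322822), the receptor that binds BAFF alone, had 13, 10 and 13 counts with GST and 9, 7 and 25 with GST-PTR1. Its libraries overlapped, and its log2 fold change of -0.36 had a 95% interval from -1.24 to 0.52 (adjusted p = 0.549, edgeR), which leaves room for changes of over 2-fold downwards.

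TNFRSF1B (ENSG00000028137, chromosome 1 from 12227060 to 12269285) encodes TNFR2, the TNF receptor of lymphoid cells that acts through TRAF2. It was measured at 43.2, 40.6 and 43.7 RPKM with GST and 51.4, 51.9 and 41.8 RPKM with GST-PTR1, and the deepest GST-PTR1 library lay among the GST libraries on this scale. With TMM-scaled totals the values were 39.4, 38.6 and 41.1 against 52.7, 54.8 and 47.4 RPKM and did not overlap. On the log2 scale the difference was 0.38 ± 0.10 (SE), with an adjusted p of 0.0218 by the quasi-likelihood test of edgeR, which is a rise of 1.3-fold. TNFRSF1A (ENSG00000067182, chromosome 12 from 6437923 to 6451280), the widely expressed TNF receptor with a death domain, had 9.12, 7.04 and 8.07 RPKM with GST and 7.47, 6.0 and 5.59 RPKM with GST-PTR1. The treatments overlapped, and the log2 fold change was -0.15 with a 95% interval from -0.44 to 0.13 (adjusted p = 0.418, edgeR). The difference in response between both TNF receptors was not tested.

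TNFRSF18 (ENSG00000186891, chromosome 1 from 1138888 to 1142071), which encodes GITR, had the highest level per length in all 6 libraries. Not divided by length, TNFRSF1B was higher, at 160 ± 6.33 CPM with GST and 182 ± 21.3 CPM with GST-PTR1 (SD, n = 3 each). TNFRSF18 was measured at 82.3, 62.7 and 81.8 RPKM with GST and 81.2, 72.8 and 75.1 RPKM with GST-PTR1, and the treatments overlapped on this scale. With TMM-scaled totals they barely parted, at 75.16, 59.63 and 76.85 against 83.31, 76.87 and 85.06 RPKM. The log2 fold change was 0.21 with a 95% interval from -0.04 to 0.47 (adjusted p = 0.217, edgeR), so that any increase was below 1.39-fold within that interval. Its neighbour TNFRSF4 (ENSG00000186827, from 1146706 to 1149518), which encodes OX40, lies 4.63 kb away on the same strand with no other gene between them and was close to the limit of detection. TNFRSF4 had 1, 2 and 3 counts with GST and 11, 8 and 18 with GST-PTR1. It was not tested with the filter. The ratio of its summed counts relative to the summed library totals, 37 counts against 6, was 3.76 with an exact 95% interval from 1.57 to 10.9, which covers counting error only. In a fit of all genes with at least 1 count, its log2 fold change was 2.09 (adjusted p = 0.00856, edgeR). The p-values of that fit are not comparable with those of the filtered fit. For CD40 it gave an adjusted p of 1.18e-37, against 1.16e-05 with the filter (edgeR). The summed counts of TNFRSF4 came to 0.384 CPM with GST-PTR1 and 0.102 CPM with GST, whereas TNFRSF18 had 105 ± 5.95 and 104 ± 15.3 CPM (SD, n = 3 each).

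TNFRSF8 (ENSG00000120949, chromosome 1 from 12123434 to 12204264), which encodes CD30, had 4.89, 4.17 and 5.06 RPKM with GST and 5.88, 5.0 and 4.73 RPKM with GST-PTR1, and the treatments overlapped on this scale. With TMM-scaled totals the values were 4.46, 3.96 and 4.76 against 6.04, 5.28 and 5.36 RPKM and did not overlap. The log2 fold change was 0.34 with a 95% interval from 0.07 to 0.61, and it did not pass after adjustment (unadjusted p = 0.0191, adjusted p = 0.0757, edgeR). LTBR (ENSG00000111321, chromosome 12 from 6484211 to 6500733), the receptor for lymphotoxin α1β2 that is typical of stromal and myeloid cells, had 0, 0 and 2 counts with GST and 1, 1 and 0 with GST-PTR1. At 3 counts as the limit of detection, which is worth 0.0671 to 0.197 CPM in these libraries, LTBR was not detectable above that level with either treatment and no fold is given.

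The scale and the choice of libraries mattered for the small changes. When libraries were scaled by their totals without TMM factors, the median of all genes shifted by -0.20 on the log2 scale, and 2 of the 8 receptor genes were called higher, against 5.48% of all genes. TNFRSF1B then had a log2 fold change of 0.19 (adjusted p = 0.255, edgeR) and TNFRSF13B of 0.32 (adjusted p = 0.119, edgeR), so that relative to the shift both were close to their values under TMM. Without the GST library of 23453473 counts the log2 fold changes of TNFRSF1B and TNFRSF13B were 0.41 and 0.50, but both missed the threshold (adjusted p = 0.0609 and 0.0622, edgeR) and 2 genes were called, against 6.09% of all genes. TNFRSF1B also missed it when any of 3 other libraries was left out, with log2 fold changes of 0.34 to 0.37. Its adjusted p was 0.0589 without the GST library of 20077280 counts, and 0.0641 or 0.104 when the GST-PTR1 library left out was that of 22874133 or of 28837431 counts (edgeR). On TMM-scaled RPKM 6 of the 8 receptor genes had no overlap between treatments, against 40.4% of all genes tested in either direction. On RPKM with library totals this held for 2 of the 8, against 43.1%.

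The share of each gene in the receptor mRNA pool is free of the scaling between libraries, but the summed level is not. The summed RPKM of the 10 genes was 154, 126 and 151 with GST and 169, 157 and 149 with GST-PTR1, which overlapped. On TMM-scaled totals the sums were 141, 120 and 142 against 173, 166 and 168 and did not overlap. CD40 held 0.914% ± 0.143 of the sum with GST and 3.8% ± 0.86 with GST-PTR1 (SD, n = 3 each). The share of TNFRSF9 was 0.2% ± 0.0516 with GST and 1.3% ± 0.165 with GST-PTR1. TNFRSF1A held 5.61% ± 0.291 with GST and 4.0% ± 0.366 with GST-PTR1. All 3 GST-PTR1 libraries had a lower share of it than any GST library. For each of these 3 shares the exact permutation test gave p = 0.1 (two-sided), the smallest it can give with 3 libraries against 3. The share of TNFRSF4, a gene with at most 3 counts with GST, gave the same p (0.0399% ± 0.0132 and 0.142% ± 0.0343). A share also falls when other genes of the sum rise, and TNFRSF1A itself had a log2 fold change of -0.15 (adjusted p = 0.418, edgeR). The shares of TNFRSF18 (52.4% ± 2.27 and 48.3% ± 2.13) and TNFRSF1B (29.7% ± 2.21 and 30.5% ± 2.42) overlapped between the treatments.

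**Figure D3:**
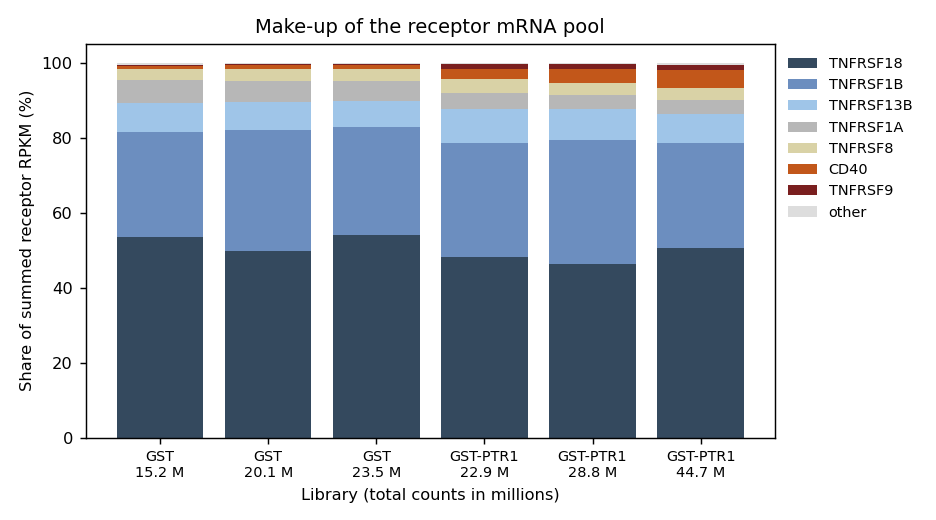
Share of the summed RPKM of the 10 receptor genes held by each gene in each library (stacked bars, in percent), with the library total below each bar and TNFRSF13C, TNFRSF4 and LTBR joined as other. TNFRSF18 and TNFRSF1B fill most of every bar, and the bands of CD40 and TNFRSF9 are wider in the 3 GST-PTR1 libraries.

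Several receptor genes lie close together. TNFRSF8 and TNFRSF1B are 22.8 kb apart on chromosome 1 with no gene between them and had log2 fold changes of 0.34 and 0.38. TNFRSF1A and LTBR are 32.9 kb apart on chromosome 12. TNFRSF9 is 4123 kb from TNFRSF8. Of the 14 nearest tested genes on either side that are not themselves receptor genes of the list, edgeR called 0 higher and 1 lower after adjustment (2 higher at an unadjusted p under 0.05), and voom gave the same counts. DESeq2 called 2 higher and 1 lower. Of all genes tested, 9.15% were higher and 11.4% lower in edgeR, and 10.7% were higher in DESeq2. The 14 neighbours had a median log2 fold change of -0.02. The lower gene, ENSG00000230709, starts 3881 bases beyond TNFRSF13B and had a log2 fold change of -1.52 (adjusted p = 0.000348, edgeR). It was picked out after its value was seen. The genes next to TNFRSF9, VAMP3 and PARK7, had log2 fold changes of -0.04 and 0.36, and those next to CD40, RPL13P2 and CDH22, of 0.79 and -0.33, with adjusted p-values of 0.093 or more (edgeR).

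The rest of the receptor family, the ligands and the signaling proteins next to the receptors were counted with the same fit. Of 19 other TNF receptor superfamily genes 11 were tested, of which 4 were higher and 2 lower, against 9.15% and 11.4% of all genes tested. The median log2 fold change of the 11 was 0.23. FAS, a death receptor, had 5.09 ± 1.19 RPKM with GST and 16.1 ± 2.07 RPKM with GST-PTR1 (SD, n = 3 each), a rise of 1.86 on the log2 scale (adjusted p = 5.14e-05, edgeR). TNFRSF11A (RANK) had at most 8 counts with GST, and its 0.0347 ± 0.0112 RPKM there compared with 0.178 ± 0.0134 RPKM with GST-PTR1, a log2 difference of 2.56 (adjusted p = 0.000175, edgeR). A gene this low with GST can pass the expression filter through its GST-PTR1 level alone, which favours a large rise. TNFRSF17 (BCMA), which shares the ligand APRIL with TNFRSF13B, was lower with GST-PTR1, at 8.87 ± 2.03 RPKM against 27.4 ± 4.23 RPKM with GST, a log2 difference of -1.41 ± 0.19 (SE, adjusted p = 0.000374, edgeR), and it is also one of the plasma cell markers. With GST the libraries ranged from 24.4 to 32.2 RPKM for TNFRSF17 and from 9.38 to 12.3 RPKM for TNFRSF13B. With GST-PTR1 the order per length turned, with 6.86 to 10.9 RPKM for TNFRSF17 and 11.5 to 15.4 RPKM for TNFRSF13B. Not divided by length, TNFRSF13B had the higher mean with GST already, at 39.4 ± 5.51 CPM against 30.65 ± 4.73 CPM for TNFRSF17. With GST-PTR1 these were 49.1 ± 7.29 and 9.91 ± 2.27 CPM (SD, n = 3 each), so on that scale the order did not turn.

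Of the 11 genes that encode ligands of the 10 receptors 9 were tested, and 6 of them were higher, each by at least 2-fold. Of all genes tested, 9.15% were higher, 3.68% higher by at least 2-fold and 11.4% lower. The median log2 fold change of the 9 ligand genes was 3.76, the value of LTA, which had at most 8 counts with GST. TNFSF18, TNFSF13B, TNF and TNFSF9 had at most 6, 12, 15 and 17 counts with GST, and LTB at most 423. The filter can be passed through the GST-PTR1 level alone, so large rises are favoured among genes this low with GST. DESeq2 and voom called 5 of the ligand genes higher, against 10.7% and 9.15% of all genes tested. None was lower in edgeR (0 at an unadjusted p under 0.05), DESeq2 or voom. TNFSF9, the ligand of TNFRSF9, LTB, a subunit of the ligand of LTBR, and TNF had log2 fold changes of 6.25, 3.81 and 4.59. LTB reached 132 RPKM on average in cells in which its receptor gene LTBR was not detectable. The ligand gene of CD40, CD40LG, had at most 1 count in any library and was named after its value was seen. All 20 receptor-proximal signaling genes that were matched by name were tested, and 12 were higher and 1, TRAF5, was lower (log2 fold change -1.25, adjusted p = 6.37e-05, edgeR), which was named after its value was seen. The 3 with the smallest adjusted p were BIRC3, TNFAIP3 and RELB, with log2 fold changes of 3.92, 2.73 and 2.28. Of 10 genes for shedding and cleavage of receptors, such as ADAM10, ADAM17 and subunits of γ-secretase, 8 were tested and none was called higher or lower in edgeR (1 in each direction at an unadjusted p under 0.05), while DESeq2 and voom each called 1 higher.

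**Figure D4:**
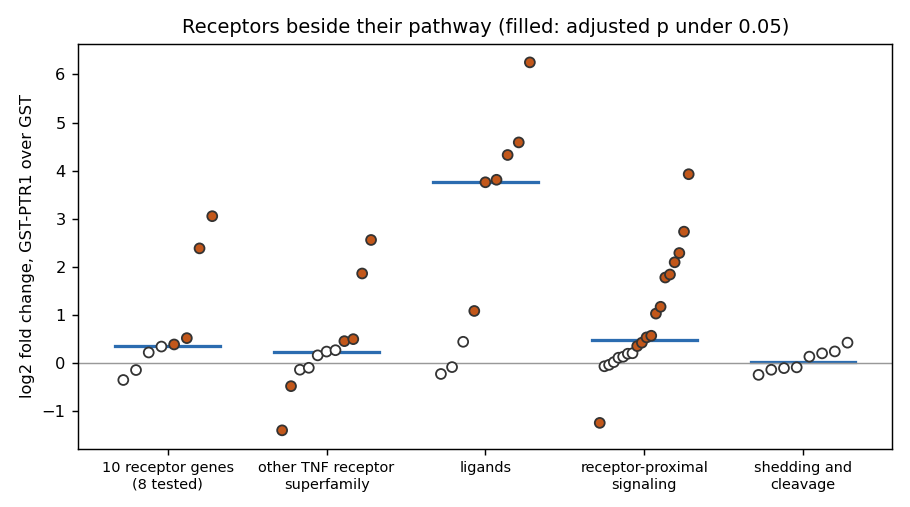
Log2 fold change, GST-PTR1 over GST, of each gene tested in the 10 receptor genes and in 4 lists around them, filled where the adjusted p was under 0.05, with a line at the median of each list. The ligands have the highest median, 3.76, which is the value of LTA, a gene with at most 8 counts with GST. The 8 receptor genes have a median of 0.36 with TNFRSF9 and CD40 standing above the others.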

How the data were processed

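RNA-Seq libraries of RPMI8226 cells treated for 6 hr with 100 nM GST-PTR1 or GST were analysed, with 3 biological replicates of each. Per the file headers, the deposited values are raw counts of reads per gene, which the authors made with featureCounts version 1.5.0-p1 on exons of Ensembl release 75 (GRCh37), counting the reverse strand. By that program's default, reads that map to several places or overlap several genes were left out, so counts on overlapping genes are incomplete. Exon length is the other deposited value used, in bases. The submitters' processing notes also name FastQC, Subread and limma, and the aligner's settings are not given in the sources used here. Libraries were assigned to treatments from the column names, whose numbers are not the replicate numbers of the samples, so they were not paired. No pair within a treatment agreed within sampling noise (chi-square per gene at least 8.37).

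The treatments were compared in edgeR 4.0.16 under R 4.3.3 (TMM factors, filterByExpr, glmQLFit, glmQLFTest, Benjamini-Hochberg over 16926 genes, threshold 0.05), after a test on simulated data. RPKM used library totals, while fold changes are on TMM-scaled totals. DESeq2 1.42.0 and voom from limma 3.58.1 were alternatives. Symbols were matched by identifier for 39699 genes, and IKBKG and TRAC were not matched on a primary chromosome. The receptor genes and lists were chosen with earlier results of these data known. Named are the 10 receptor genes and the 3 genes with the smallest adjusted p of each list, the nearest tested genes of the receptor genes, and the 3 genes most like the receptor gene of smallest adjusted p. The detection limit was set at 3 counts and covers counting error only. Promoters came from RefSeq on GRCh38.p14, and no coordinates were converted.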

Additional observations from a re-analysis of the deposited data

How the results depend on the processing

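Under scaling with DESeq2's size factors or library totals, DESeq2's or voom's test, other filters, thinning to the smallest library and leaving out each library, TNFRSF9 and CD40 kept an adjusted p under 0.05 wherever tested (12 and 13 alternatives), with log2 fold changes of 2.85 to 3.18 and 2.18 to 2.54. No receptor gene changed direction, and 0 were lower in any. TNFRSF1B missed the threshold in 5 of 13 (adjusted p up to 0.255, edgeR) and TNFRSF13B in 2 of 13 (up to 0.119). The 4 receptor genes called higher became 2 with library totals (5.48% of all genes), 2 in the test against a 1.5-fold change (3.33%), 5 of 10 when every gene with at least 1 count was tested (8.25%, TNFRSF4 being added), and 2 to 4 when 1 library was left out (6.09% to 8.82%). As p-values of the fit with at least 1 count are not comparable with the main ones, TNFRSF4 adds little. With at least 10 counts in every library, 1 receptor gene rather than 2 was at least 2-fold higher, because TNFRSF9 was no longer among the 6 tested. In that setting 2 ligands of 4 tested were higher in place of 6 of 9, against 8.575% of all genes. Other superfamily receptors called higher numbered 2 with library totals and 2 in the test against 1.5-fold in place of 4, those lower 1 in that test in place of 2, and signaling genes 6 in that test in place of 12. Of all 16926 genes, 346 were lower in that test, in place of 1937. Leaving out 1 library gave 1 to 2 lower superfamily receptors, with 1 without the GST library of 15202503 counts and without the GST-PTR1 libraries of 28837431 or 44688737 counts. In these fits, in that order, 1445 of 17159, 1179 of 17389 and 1212 of 17394 genes were lower, so lower calls fell among all genes too. Per CPM in place of RPKM, TNFRSF1B held 44.9% of the receptor pool with GST and TNFRSF18 28.9%. The cause of these differences was not tested.

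No paired analysis was possible because the count columns do not carry the replicate numbers of the samples. The 4 libraries with a number in common between treatments were fitted as an alternative chosen after seeing the data. The replicate block with that number gave 3 receptor genes higher, against 9.24% of all genes. The fit without it also gave 3, against 10.3%. TNFRSF1B missed the threshold in both (adjusted p = 0.0916 and 0.0626, edgeR). For CD40 the adjusted p was 2.1e-29 with the block and 1.25e-15 without it, against 1.16e-05 with all 6 libraries (edgeR). P-values from these fits of 4 libraries are therefore not comparable with those of the main fit. Deviations of same-numbered libraries had a correlation of -0.03 across genes.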

Other observations

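Over the 6 libraries, the genes whose log2 CPM was most like that of TNFRSF9 were IER3, CXorf49B and NAMPT, with Pearson's r of 0.9996, 0.9992 and 0.9991. This is a description across libraries that share the treatment contrast and differ in depth. Of 16925 other genes tested, 1394 had an r above 0.9. IER3 encodes an early response protein and NAMPT an enzyme of NAD synthesis, and their log2 fold changes were 4.01 and 2.0. CXorf49B has a near-identical copy, so its counts are uncertain.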
